A study of Gallus gallus with 4 samples.

Results

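Heat shock proteins and their partners were described in chicken DT40 cells that lost the nuclear actin-related protein Arp6. The members were the genes whose single symbol on the array began with HSP90, HSPA, HSPB, HSPH, DNAJ, CCT plus a digit, BAG plus a digit or HSF plus a digit, together with TCP1, AHSA1 and STIP1, and without the mitochondrial gene HSPA9. That gave 81 genes of 13009 on the array, and 66 of the 8026 genes bright enough to be tested. DT40 is a B cell lymphoma line. All 4 cultures were conditional Arp6 knockout cells, in which exons of the ARP6 gene were replaced by hisD or puro resistance cassettes and Arp6 came from a transgene that tetracycline shuts off. One culture was sampled at day 0 without tetracycline, with Arp6 on, and 3 more had tetracycline (2 ug/ml) for 2, 4 or 6 days, with 1 array per day. No array was taken without tetracycline after day 0, so Arp6 loss, tetracycline and time in culture cannot be told apart. There were no replicates and no test was made between days. Having 1 array a day limits the precision of the values, as do gaps between probe sets of the same gene, given below.

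Chaperones bind proteins that are not fully folded and release them in cycles of ATP use. HSP70 proteins do so with J proteins, which bring the substrate and start ATP hydrolysis, and with exchange factors of the BAG and HSP110 families, which reload ATP, while HSP90 takes over late folding steps of kinases and receptors. The TCP1 ring, or chaperonin, is a closed cage built of different subunits that folds actin and tubulin. In the endoplasmic reticulum (ER), HSPA5 and HSP90B1 serve secreted and membrane proteins, antibody chains in B cells among them, and their genes are raised by the unfolded protein response, whereas the cytosolic genes answer to heat shock factors.

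Signals below are the authors' intensities after each array was brought to a common median, and a log2 ratio sets a later day against day 0. Higher and lower counts take genes that differ by 2-fold or more, each read by its brightest probe set. A signal under the array's unspiked control probe sets (their 95th percentile, 25.4, 24.9, 32.1 and 45.9 at days 0, 2, 4 and 6) is called below background, and a ratio against it is then given as "at least". ACTR6, the gene of Arp6, stood at 7002 at day 0 and at 318, 331 and 383 at days 2, 4 and 6 by the probe set with the higher mean. By its other probe set it stood at 7086 at day 0 and, below background, at 4.32, 29.7 and 8.39, at least 285-, 220- and 154-fold lower, and both follow the labels. Of the B cell markers on the array, 9 of 10 were above background at day 0 and BLK was below it on all 4 arrays. The markers' summed signal was 12095, 9185, 8221 and 7573 on the 4 arrays, and single markers went apart, with JCHAIN at 4643 on day 6 and 4242 on day 0, CD79B at 370 and 2051, BTK at 71.3 and 1167, CD72 at 64.3 and 776, and EBF1 below background at day 6. Of 5 T cell markers CD3D was bright at day 0, at 2382, and 3 were below background throughout. Of the other markers, CSF1R read 56.5, 69.6, 40.8 and 123 on the 4 arrays, MARCO 41.6, 18.6, 109 and 39.4, and HBAD 44.7, 33.8, 18.2 and 55.4. In a bulk culture, fewer cells of a kind and less RNA per cell cannot be told apart. The ratio of 3' to 5' probe sets lay between 1.65 and 2.22 for actin and between 0.872 and 0.937 for GAPDH on the 4 arrays. The part of marker genes, background or RNA quality in the results was not tested.

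Most chaperone genes stayed within 2-fold of day 0. At day 2, 0 of the 66 members were 2-fold higher and 0 were 2-fold lower, where 2.42% and 2.97% of all tested genes were. At day 4, 2 were higher and 5 lower (3.03% and 7.58% of members), beside 5.77% and 5.12% of all tested genes. By day 6 the counts were 6 higher and 7 lower (9.09% and 10.6%), beside 8.48% and 8.35% of all tested genes, so at days 4 and 6 the shares of members lay near those of all genes. Counting ratios against background as bounds left 3 lower members at day 4 (BAG5, CCT3 and HSPH1), and 5 higher and 6 lower at day 6. No share of all tested genes was at hand under that rule, so the shares above do not apply to these counts. The median log2 ratio of the members was 0.03, -0.06 and 0.01 at the 3 later days, and that of all tested genes -0.01, 0.0033 and -0.01. Left unscaled, the arrays put the median gene at -0.17, -0.24 and -0.48, and scaling to the spike-in controls put it at -0.01, 0.30 and 0.16, so every ratio here is relative to the median gene. The split of 2-fold members went with the scaling: unscaled arrays gave 0 higher and 3 lower at day 2 and 1 higher and 16 lower at day 6, spike-in scaling 4 higher and 3 lower at day 4 and 9 and 6 at day 6, and quantile normalization 3 and 6 at day 6. All tested genes went with it too, with 1.83% higher and 5.02% lower at day 2 and 3.28% and 20.0% at day 6 unscaled, 11.1% and 2.64% at day 4 and 11.1% and 6.37% at day 6 with spike-in scaling, and 6.92% and 9.77% at day 6 with quantile normalization.

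**Figure D1:**
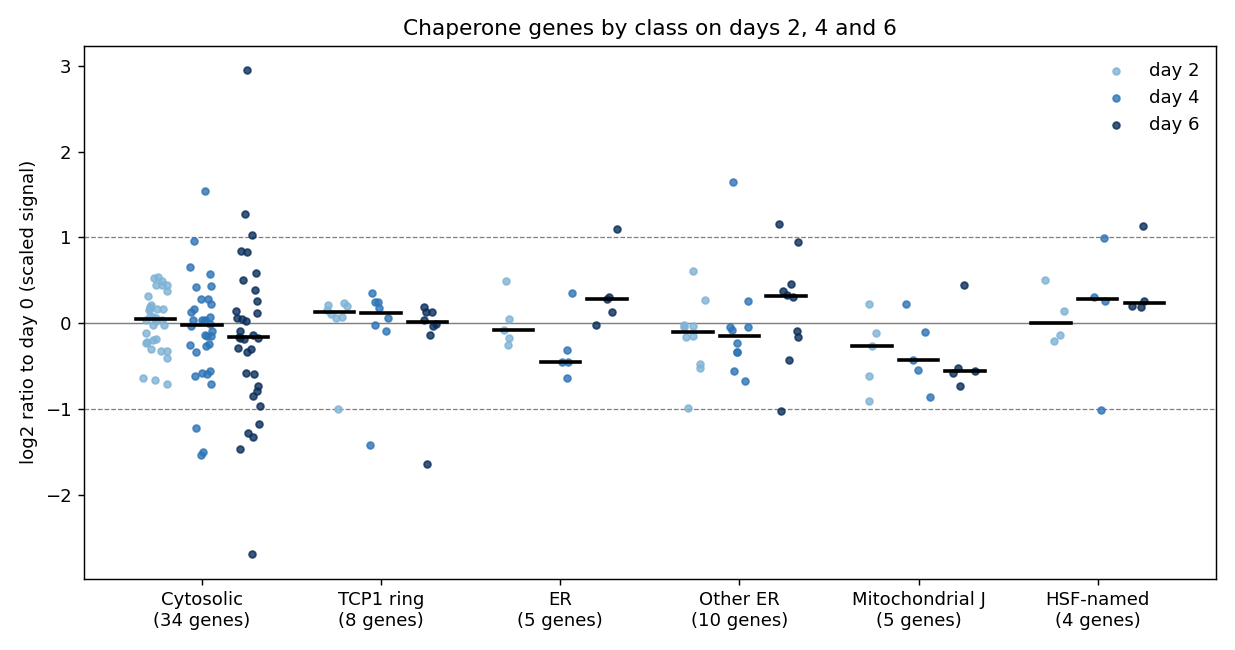
Log2 ratio to day 0 (y axis) of each tested chaperone gene at days 2, 4 and 6 (shades, light to dark), by class (x axis). Points are genes, black bars are class medians and dashed lines mark 2-fold. The ER median dropped to -0.46 at day 4 and stood at 0.28 at day 6, while the TCP1 ring medians stayed between 0.01 and 0.13 with 1 gene far below the rest.

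Of the 5 ER chaperones, 4 were below day 0 at day 4, as were 3982 of 8026 tested genes. All 5 were higher at day 6 than at day 4. The 5 genes HSPA5, HSP90B1, DNAJB9, DNAJB11 and DNAJC3 had a median log2 ratio of -0.08, -0.46 and 0.28 at days 2, 4 and 6. Against these stand 0.05, -0.03 and -0.17 for the 34 cytosolic members, and 0.13, 0.12 and 0.01 for the 8 TCP1 ring genes. All 5 ER genes were higher at day 6 than at day 4, by 0.45 to 0.76 on the log2 scale with a median of 0.74, as were 49.0% of all tested genes, whose median step was -0.01. The cytosolic genes split evenly on that step, with 17 up and 17 down, and 6 of the 8 ring genes went down. In the deposited values too, before any scaling, each of the 5 ER genes read higher at day 6 than at day 4 by its brightest probe set. Dim second probe sets of DNAJC3 and HSP90B1 were lower at day 6 than at day 4.

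HSPA5, the ER member of the HSP70 family also known as BiP, had signals of 3247, 2876, 2083 and 3196 at days 0, 2, 4 and 6. Its log2 ratio was thus -0.18, -0.64 and -0.02, lowest at day 4 and back at its starting level at day 6. HSP90B1, the ER form of HSP90, read 3182, 3291, 2318 and 3861 on the 4 arrays. It kept its day 0 level at day 2, was 1.37-fold lower at day 4 and 1.21-fold higher at day 6. DNAJB11, a J protein that brings substrates to HSPA5, read 283, 267, 206 and 350, also 1.37-fold lower at day 4, and 1.24-fold higher at day 6. DNAJC3, a J protein of the ER lumen that also holds back kinases that slow translation, read 248, 208, 200 and 273. These 4 genes were lowest of days 0, 2 and 4 at day 4 and higher at day 6, a shape shared by 5 of 10 other ER members, 9 of 34 cytosolic members, 1 of 8 ring genes and 22.0% of all tested genes. The shape was not planned and describes what these 4 genes did, so their sharing it is no test. It has no least size, and DNAJC10 counts with a log2 ratio of -0.04 at day 4.

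DNAJB9, a J protein that holds the stress sensor IRE1 inactive together with HSPA5, differed from them. Its signals were 222, 312, 283 and 475, above day 0 on every later day and 2.14-fold higher at day 6, the 1 ER gene past 2-fold. A second DNAJB9 probe set followed the other 4 genes, with log2 ratios of -0.22, -0.40 and 0.20. These probe sets therefore went opposite ways at days 2 and 4 and the same way at day 6, and a further one, at 95.7, 90.8, 27.1 and 68.8, was lowest at day 4 as well, below background. DNAJC3 and HSP90B1 also had second probe sets, which were dim, with signals of 22.6 to 46.4 and 46.1 to 57.1. Their log2 ratios were -0.04 and 0.03 at day 4, and -0.12 and -0.25 at day 6. For these 2 genes the dip at day 4 and the step up to day 6 were thus seen with the bright probe set only. With all probe sets of a gene averaged, the ER median less that of all genes was -0.48 at day 4 and -0.0032 at day 6.

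**Figure D2:**
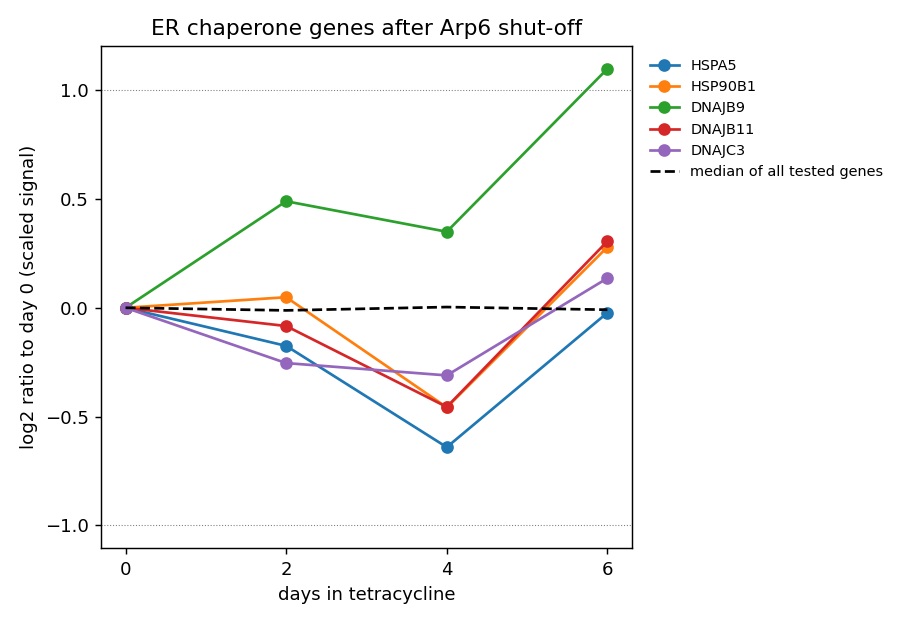
Log2 ratio to day 0 (y axis) of the 5 ER chaperone genes over the days in tetracycline (x axis), with the median of all tested genes as a dashed black line and dotted lines at 2-fold. HSPA5, HSP90B1, DNAJB11 and DNAJC3 are at -0.64 to -0.31 at day 4, and all 5 genes are higher at day 6 than at day 4.

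A further 10 members, placed in the ER by hand from what is known in human cells and least surely so for DNAJC16, DNAJC18 and DNAJC22, had medians of -0.10, -0.15 and 0.32, and 8 of them were higher at day 6 than at day 4. DNAJC10, an ER J protein that reduces disulfides, read 685, 669, 667 and 862, and its second probe set gave 0.28, 0.16 and 0.77 on the log2 scale. DNAJC25 read 124, 120, 148 and 240, nearly 2-fold above day 0 at day 6 (1.93-fold). DNAJC14 went the other way, with signals of 574, 401, 360 and 283, lower at each step and 2.03-fold lower at day 6. DNAJC22 had no signal over background at days 0 and 6, while day 4 was at least 2.39-fold higher. DNAJB14 and DNAJC16 stayed within 2-fold, although DNAJC16 was 1.98-fold lower at day 2.

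The TCP1 ring showed 1 subunit apart from the others. CCT3, its gamma subunit, had signals of 900, 450, 336 and 289 at days 0, 2, 4 and 6. It just missed the 2-fold count at day 2 and was 2.68-fold lower at day 4 and 3.11-fold lower at day 6. Its level went down at each step, as for 10.3% of all tested genes, and was 2-fold lower at days 4 and 6 under all 10 other settings tried. The array names 1 probe set for CCT3, so no second one could be set beside it. Averaging probe sets, 1 of those 10 settings, therefore could not change its ratio. Nor could the settings with no floor or a higher floor, which lies below its signals. Scalings by 1 factor per array put the median gene no higher than 0.30, too little to undo ratios of -1.42 and -1.64. With spike-in scaling CCT3 was at -1.12 and -1.47, its highest values at days 4 and 6. Under most of the settings the outcome was thus fixed beforehand.

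The other 7 ring genes kept to a narrow band. Their log2 ratios lay between 0.06 and 0.23 at day 2, between -0.09 and 0.35 at day 4 and between -0.13 and 0.19 at day 6. Their medians of 0.15, 0.17 and 0.04 stood close to those of the brightest 10% of all tested genes, 0.08, 0.08 and 0.09. TCP1, the alpha subunit, read 4808, 5552, 5419 and 5478, and CCT2 (beta) read 3762, 4414, 4455 and 4117. CCT7 (eta), at 3267, 3636, 4161 and 3348, had the ring's highest log2 ratio, 0.35 at day 4. CCT4 (delta) read 3451, 3620, 3402 and 3149, and its second bright probe set read 2494, 2574, 2679 and 2676. At day 6 these CCT4 probe sets lay a little to either side of day 0, at -0.13 and 0.10 on the log2 scale. CCT5 (epsilon) read 4622, 4962, 4814 and 4581. CCT6A (zeta) read 2974, 3097, 2790 and 2901, and CCT8 (theta) 4875, 5609, 5776 and 5338, all within the same band. A dim probe set of CCT8, with signals of 28.5 to 69.0, gave -1.09, -0.85 and 0.19. With unscaled arrays the 7 genes lay between -0.60 and -0.28 at day 6, where the median gene was at -0.48 and CCT3 at -2.11.

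**Figure D3:**
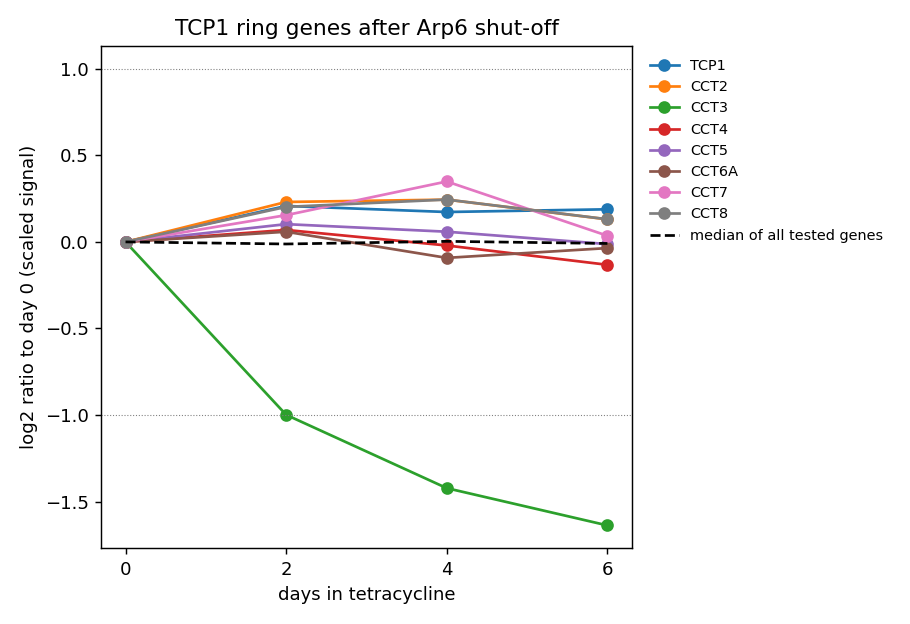
Log2 ratio to day 0 (y axis) of the 8 TCP1 ring genes over the days in tetracycline (x axis), with the median of all tested genes as a dashed black line and dotted lines at 2-fold. CCT3 goes down to -1.64 at day 6 while the other 7 genes stay between -0.13 and 0.35.

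Genes that feed or aid the ring varied more than those 7 subunits, but not more than the whole ring with CCT3. Of 8 tested genes of prefoldin, which hands new actin and tubulin to the ring, and of ring helpers, 1 was 2-fold higher on any day and 0 were 2-fold lower, where 11.2% and 12.8% of all tested genes were. Their medians were 0.01, 0.09 and -0.04, and their log2 ratios ran from -0.53 to 1.26 at day 6. Those of the whole ring ran from -1.64 to 0.19. PDCL, a phosducin-like helper of the ring, read 101, 168, 195 and 242 and was 2.39-fold higher at day 6. PFDN4, a prefoldin subunit, had 1972, 1869, 1479 and 1366, or 1.44-fold lower at day 6.

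The cytosolic HSP90 genes parted at day 6. HSP90AA1, the heat-inducible form, read 6167, 6317, 6495 and 6680, within 1.08-fold of day 0 throughout. HSP90AB1, the form made without stress, read 2026, 2109, 2072 and 1224, level to day 4 and 1.65-fold lower at day 6. The second probe set of HSP90AA1 gave log2 ratios of 0.17, 0.12 and 0.17, and HSP90AB1 had 1 probe set. AHSA1, which speeds the ATPase of HSP90, read 2191, 1785, 1468 and 1217, lower at each step and 1.80-fold lower at day 6. STIP1, which bridges HSP70 and HSP90, read 701, 783, 855 and 726 and ended at its day 0 level.

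Among other partners of HSP90 and HSP70, a list of 18 tested genes had medians of 0.03, 0.01 and 0.01. In that list 0 genes were 2-fold higher on any day (11.2% of all tested genes were), and 1 was 2-fold lower at day 4 and 1 at day 6 (5.12% and 8.35% of all). FKBP5, an HSP90 co-chaperone of steroid receptors, read 226, 129, 92.7 and 133 and was 2.44-fold lower at day 4. Its second probe set stood at -0.66, -0.77 and -1.19, below day 0 on each day as well. CDC37, which loads kinases onto HSP90, read 128, 88.3, 101 and 60.4 and was 2.12-fold lower at day 6, but its second probe set gave 0.30, -1.08 and 0.50.

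In the HSP70 family the constitutive gene hardly moved and the exchange factor HSPH1 was lower. HSPA8, the main cytosolic HSP70 of unstressed cells, read 6374, 7135, 6483 and 5816, with log2 ratios of 0.16, 0.02 and -0.13. HSPA2, a further HSP70 gene, read 395, 416, 431 and 703, level to day 4 and 1.78-fold higher at day 6. HSPH1, an HSP110 protein that reloads HSP70 with ATP, read 738, 475, 317 and 327. It was 1.55-fold lower at day 2, 2.33-fold at day 4 and 2.26-fold at day 6, and a second HSPH1 probe set was too dim to use. The other HSP110 genes did not share that course. HSPA4 read 933, 919, 960 and 758, and HSPA4L 725, 713, 847 and 753, at -0.30 and 0.06 on the log2 scale at day 6. HSPA14, an HSP70 protein of the ribosome, read 335, 387, 408 and 296, while its J partner DNAJC2 read 1199, 958, 732 and 799 and was 1.64-fold lower at day 4.

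BAG proteins open the nucleotide pocket of HSP70. BAG5 read 142, 86.9, 50.1 and 58.5, 2.84-fold lower at day 4 and 2.43-fold lower at day 6, with signals at day 6 not far above background. BAG2 read 1139, 858, 1067 and 584, with a drop at day 6 (1.95-fold lower) that stayed just under 2-fold. BAG1 read 253, 345, 230 and 379 and BAG4 467, 479, 392 and 416. Both were above day 0 at day 2, below it at day 4 and higher at day 6 than at day 4. At day 6 BAG1 was above day 0 and BAG4 below it. Each of the 4 tested BAG genes had 1 probe set.

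The 16 cytosolic and nuclear J proteins ranged at day 6 from DNAJC7, at least 3.59-fold lower, to DNAJB4, 2.41-fold higher. Their medians were -0.04, -0.15 and -0.24, and 11 of them lay below day 0 at day 6, as did 50.7% of all tested genes. DNAJA1, a partner of HSPA8, read 1173, 1001, 779 and 681, lower at each step and 1.72-fold lower at day 6. Its second probe set read 877, 818, 693 and 473 and was also lower at each step. The sister genes were flatter, with DNAJA2 at -0.20, -0.24 and -0.29 and DNAJA4 at 0.32, 0.16 and 0.26 on the log2 scale. DNAJC9, which escorts histones H3 and H4, read 2119, 1954, 1681 and 1410, lower at each step and at -0.59 on the log2 scale at day 6, but its second probe set stood at 0.37, 0.34 and 0.06. DNAJC8, a J protein tied to the spliceosome, stayed within 1.02-fold of day 0 on all 3 days, with its second probe set at 0.27, -0.19 and -0.31 on the log2 scale.

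DNAJB4 was the 1 cytosolic J protein that was 2-fold higher on any day. Its signals were 151, 213, 293 and 364, higher at each step, as for 9.87% of all tested genes, and 2.41-fold above day 0 at day 6. The second DNAJB4 probe set, at 34.3, 59.6, 124 and 77.2, had log2 ratios of 0.80, 1.85 and 1.17, in the same direction but highest at day 4, and a further one, at 36.3, 44.6, 104 and 47.1, was highest at day 4 too. DNAJC7, which binds HSP70 and HSP90 through its repeats, read 165, 214, 148 and 25.5. It was near day 0 up to day 4 and then at least 3.59-fold lower, with a day 6 signal under background. DNAJC12 read 191, 121, 172 and 75.9 and was 2.51-fold lower at day 6, with day 4 close to day 0. DNAJC21, which acts in ribosome maturation, dropped under background at day 4, at least 1.81-fold lower, and had a log2 ratio of 0.14 at day 6. DNAJB2, under background at day 6, was lower by at least 1.17-fold.

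The highest ratio of all members belonged to HSPB9, a small heat shock protein. Its brighter probe set read 147, 200, 427 and 1132, which is 1.37-fold above day 0 at day 2, 2.91-fold at day 4 and 7.73-fold at day 6. The other HSPB9 probe set read 48.4, 66.5, 80.7 and 240, with log2 ratios of 0.46, 0.74 and 2.31 beside 0.45, 1.54 and 2.95. Both were higher at each step, and HSPB9 was 2-fold higher at day 6 under all 11 other settings, lowest with the second probe set. Scalings by 1 factor per array put the median gene between -0.48 and 0.16 at day 6, too little to undo a ratio of 2.95. Under most of these settings the outcome was thus fixed beforehand. HSPB1, the small heat shock protein also called HSP27, was dim, at 29.8, 43.3, 12.7 and 60.8, below background at day 4 and 2.04-fold higher at day 6, a call that held under 3 of 9 other settings. HSPB11 and HSPBAP1, which share the name and are no small heat shock proteins, had day 6 log2 ratios of 0.38 and 0.84. The day 6 signal of HSPB11, 44.1, lay below background.

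**Figure D4:**
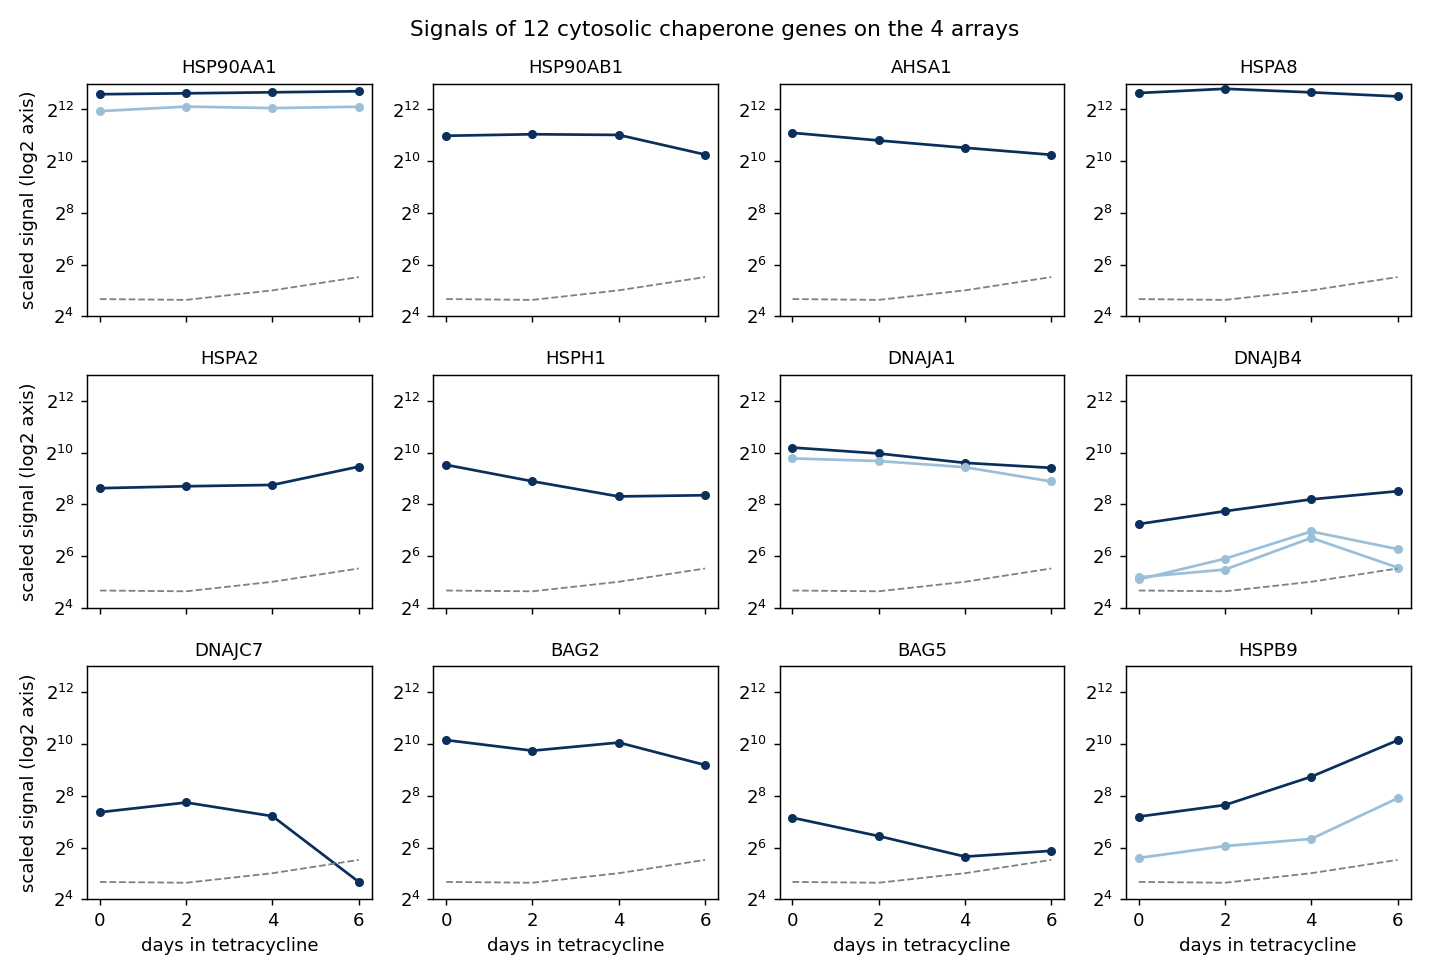
Scaled signal on a log2 axis (y axis) of selected cytosolic chaperone genes over the days in tetracycline (x axis). Dark lines are the brightest probe set and light lines any other kept probe set, and the grey dashed line is the array's background. HSPB9 goes up to 1132 at day 6, HSPH1 is down to 327, DNAJC7 ends below background, and HSP90AA1 and HSPA8 stay nearly level.

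The tested heat shock factor genes HSF2, HSF3 and HSF4 stayed within 2-fold of day 0. HSF2 read 1195, 1320, 1428 and 1374, at 0.14, 0.26 and 0.20 on the log2 scale, and 0.58, 0.73 and 0.76 by its second probe set. HSF3, a heat shock factor that birds use in the heat response, read 368, 335, 455 and 418, with log2 ratios of -0.14, 0.30 and 0.18. Its other kept probe sets gave 0.40, 0.24 and 0.62, and -0.26, 0.10 and 0.37. The dim gene HSF4 read 30.8, 26.6, 61.4 and 36.9, where the last lay below background, and was 1.99-fold higher at day 4. HSF2BP, which binds HSF2, read 39.0, 55.1, 19.2 and 85.4, below background at day 4 and 2.19-fold higher at day 6, with no steady direction. HSF1 was not analysed here. A list of 8 further genes known as heat shock factor targets had medians of 0.05, 0.19 and -0.12, with 0 genes 2-fold higher and 2 lower on any day, beside 11.2% and 12.8% of all tested genes. These were FKBP5 and HMOX1, the heme oxygenase, which read 385, 317, 476 and 171 and was 2.26-fold lower at day 6. CHORDC1, FKBP4 and FKBP5 are also in the list of HSP90 and HSP70 partners, and HSPD1 and HSPE1 among the mitochondrial chaperones. The lower FKBP5 is thus the same gene counted again.

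Of 5 tested mitochondrial J proteins, 0 were 2-fold higher or lower on any day, where 11.2% and 12.8% of all tested genes were. Their median log2 ratios were -0.27, -0.43 and -0.56 at days 2, 4 and 6. The day 4 median is the ratio of DNAJC28 and the day 6 median that of DNAJC19, both below background then. As bounds, these were at least 1.23-fold and 1.13-fold lower. On each later day 4 of the 5 lay below day 0, as did 4132, 3982 and 4073 of 8026 tested genes. DNAJC11 read 802, 742, 549 and 559, and its second, dim probe set gave 0.34, 0.48 and 0.21. DNAJA3 was at 0.22, 0.23 and 0.45, but its other kept probe sets gave -0.06, -0.25 and 0.01, and -0.50, -0.42 and -0.44. DNAJC30 read 188, 156, 175 and 113 and was 1.66-fold lower at day 6. Its other kept probe sets gave 0.20, -0.17 and -0.25, and 0.39, 0.56 and -0.17. DNAJC19, of the protein import motor, and DNAJC28 were below background at days 4 and 6. The 15 members that did not pass the brightness filter were BAG3, DNAJB5, DNAJB8, DNAJB13, DNAJC5B, DNAJC6, DNAJC15, DNAJC17, HSF5, HSPA12A, HSPB2, HSPB3, HSPB7, HSPB7L and HSPB8. Their signals lay between 0.455 and 68.2, and 8 of them were below background on all 4 arrays.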

How the data were processed

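Poly-A RNA of each day was read on an Affymetrix chicken GeneChip, per the labels' protocols. The values deposited by the authors are 1 linear intensity per probe set, from GeneChip Operating Software per the labels' protocols; how it was computed or scaled is not given in the sources used here. Of 38535 probe sets 96 controls were left out, and 16658 were kept whose mean log2 value reached the overall median, 29.1 as a signal. Arrays were brought to a common median over these by factors of 0.859, 0.962, 1.02 and 1.19 for days 0, 2, 4 and 6, and signals under 19.4, the 40th percentile, were set to that floor before log2 ratios were taken. Bounds against background, a rule chosen after seeing the data, use signals without the floor. Genes were named from the platform annotation, where 27168 probe sets other than controls had 1 symbol, 177 several and 11094 were unlisted; the 81 member symbols matched RefSeq by Entrez ID. The probe set with the highest mean log2 value stood for a gene. No coordinates or sequences were used here, and the planned promoter motif search was not run.

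Members, classes and lists were chosen with earlier results of these data known. The shapes over the days that were counted (lowest at day 4, lower or higher at each step) were not in the plan. Values are given for ER, ring and heat shock factor genes, members 2-fold different on any day, those with the highest and lowest mean ratios and the brightest, and for related lists the 2-fold genes and the 2 of each with the largest mean ratio; other members named were chosen after their values were seen. No test was made. Steps were tested on simulated data and run with numpy 2.4.6 and pandas 2.3.3 under Python 3.11.15, and figures were drawn with matplotlib 3.10.9. Alternatives were other scalings, filters, floors, probe set choices, thresholds and class bounds.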

Additional observations from a re-analysis of the deposited data

How the results depend on the processing

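No paired analysis was possible because there was 1 array per day and no test. Medians here are a class median less that of all tested genes, a change over 0.1 counts as a move, "turned" marks a change of sign, and percentages are of all tested genes under the same setting. The causes of moves were not tested. Unscaled arrays gave 3 lower members at day 2 (5.02%), and 1 higher and 16 lower at day 6 (3.28% and 20.0%). Quantile normalization gave 3 higher at day 6 (6.92%), 75th percentile scaling 1 lower at day 2 (3.10%), and spike-in scaling 4 higher and 3 lower at day 4 (11.1% and 2.64%) and 9 higher at day 6 (11.1%). Of the medians under these 4 scalings none moved by over 0.1. For unscaled arrays, 75th percentile and spike-in scaling this was fixed beforehand. There 1 factor per array cancels in a difference of medians, apart from the floor. With quantile normalization the ring median at day 6 turned to -0.0673. Without the brightness filter 3 members were higher and 12 lower at day 6 (5.57% and 11.8%), the ER medians were 0.0369 (turned), -0.63 and 0.0705 at days 2, 4 and 6, the ring medians 0.25, -0.0595 (turned) and -0.20 (turned), and the cytosolic median -0.15 at day 4. A filter at the 75th percentile left 2 lower at day 4 and 4 lower at day 6 (2.19% and 5.12%). The higher floor gave 1 higher and 3 lower at day 4 (3.11% and 3.25%) and 3 higher at day 6 (5.05%), and the pseudocount the same counts (2.29%, 2.40% and 3.99%). With bounds against background, an alternative chosen after seeing the data, 3 were lower at day 4, with no share of all tested genes at hand. A 3-fold threshold left 1 higher and 0 lower at day 4 (1.71% and 1.42%) and 1 higher and 2 lower at day 6 (2.48% and 3.40%), and a 1.5-fold one gave 1 higher and 7 lower at day 2 (7.53% and 9.46%), then 5 higher with 11 lower at day 4 (14.3% and 13.8%) and 9 higher with 13 lower at day 6 (17.4% and 18.1%). The wider cytosolic class turned its median at day 2 to -0.0109.

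Averaging probe sets turned the ER median at day 6 to -0.0032. The second brightest probe set, at hand for 30 members, gave 1 higher and 2 lower at day 2 (4.08% and 3.44%), then 1 higher with 0 lower at day 4 (8.16% and 6.09%) and 3 higher with 0 lower at day 6 (11.3% and 7.80%). It put the cytosolic medians at 0.25, 0.15 (turned) and 0.0712 (turned), and the ER medians at -0.27, -0.10 and -0.21 (turned). The ring medians were then 0.00393 and -0.0275 (turned) at days 2 and 4. These ER medians came from DNAJB9, DNAJC3 and HSP90B1 alone, and these ring medians from CCT4, CCT6A and CCT8 alone. Of those, DNAJC3, HSP90B1, CCT6A and CCT8 had dim second probe sets. Second probe sets went the same way as the brightest for 18, 17 and 20 of 30 members at days 2, 4 and 6. With a ratio over 0.5 they did so for 4 of 6 at day 4 and 5 of 7 at day 6. Their ratios lay a median of 0.29, 0.26 and 0.36 from those of the brightest at days 2, 4 and 6. Of 20 values of named members past 2-fold, 19 kept their direction under every alternative that could be computed, HSF2BP at day 4 being the exception (0 under the higher floor), and 7 stayed past 2-fold throughout. Those that did so least often were HSPB1 at day 6 (3 of 9 settings) and HSF2BP and DNAJC22 at day 6 (4 of 9 each). Of the members past 2-fold, only DNAJB4, DNAJB9 and HSPB9 had a second kept probe set. For the others no choice of probe set could change the ratio. Scalings by 1 factor per array put the median gene between -0.48 and 0.30, too little to turn a ratio past 2-fold. Much of the kept direction was thus fixed beforehand. Signals near background, above all at day 6 where background was highest, limit the dim members.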

Other observations

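The ER folding and unfolded protein response list, 26 tested genes beside the 5 members in the ER, had median log2 ratios of 0.04, -0.03 and 0.45 at days 2, 4 and 6. In it 11 genes (42.3%) were lowest of days 0, 2 and 4 at day 4 and higher at day 6, as were 22.0% of all tested genes. The shape has no least size, and the day 4 log2 ratios of the 11 ran from -0.53 (SDF2) to -0.01 (PDIA5). EDEM3 and EDEM1 also lay close to day 0 then, at -0.05 and -0.13. CALR, HYOU1, PDIA4 and PDIA6 were among the 11 too, chosen for mention after their values were seen. Second probe sets of HYOU1 and PDIA4 kept that shape, at -0.89 and -0.04 at day 4. Those of EDEM1, EDEM3 and DERL3, also among the 11, did not, at 0.63, 1.04 and 0.44. The rest of the 11 had no second probe set. At day 6, 4 of the 26 were 2-fold higher and 0 were 2-fold lower, beside 8.48% and 8.35% of all tested genes. HERPUD1, of protein degradation at the ER, read 345, 588, 561 and 1005 and was 2.92-fold higher at day 6, and ERO1A, the oxidase that drives disulfide formation, read 532, 760, 862 and 1518 and was 2.85-fold higher. SDF2L1, a partner of HSPA5, read 48.2, 94.7, 110 and 123, 2.28-fold above day 0 at day 4 and 2.55-fold at day 6. PDIA5, a disulfide isomerase, read 101, 110, 99.9 and 214 and was 2.13-fold higher at day 6.

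Mitochondrial chaperones, 9 tested genes, had medians of 0.06, -0.03 and 0.23, and 0 were 2-fold different on any day, where 11.2% of all tested genes were higher and 12.8% lower. GRPEL1, the exchange factor of mitochondrial HSP70, read 456, 569, 657 and 775, and LONP1, a protease of the matrix, 897, 839, 592 and 545. The second GRPEL1 probe set gave log2 ratios of -0.01, -0.09 and 0.48, beside 0.32, 0.53 and 0.77. That of LONP1 gave 0.14, -1.24 and -0.06, beside -0.10, -0.60 and -0.72, so it was past 2-fold lower at day 4.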
